A study of Homo sapiens with 12 samples.

Results

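Expression of 10 genes of fatty acid synthesis, of 58735 annotated genes, was followed across 4 groups of human breast cancer cells by RNA sequencing. The genes were ACLY, FASN, ACACA, ACACB, SCD, ELOVL1, ELOVL5, ELOVL6, FADS1 and FADS2, and all 10 were found by symbol and passed the filter on low values in both comparisons. In the comparison of resistant with parental cells, FADS1 and FADS2 passed it only through the resistant cells, where they are high. They were selected on the silencing values: ACLY stood among the largest increases in FPKM after BCRP silencing, and the rest belong to the same pathway. The silencing values of the 10 genes are therefore given as a description, with no p-value, and the count of them past the threshold of the fit over all genes supports nothing. The comparison of resistant with parental cells was not the basis of the choice and was tested. Earlier results of these data were, however, known when the genes were chosen.

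SK-BR-3 is an established HER2-amplified breast cancer line. SK/EPI is its epirubicin (EPI)-resistant derivative, made by prolonged stepwise exposure to rising concentrations of this anthracycline. SK/EPI-siControl and SK/EPI-siBCRP are SK/EPI cells that received, with Lipofectamine RNAiMax for 48 h, a negative control siRNA (siNC in the labels) or an siRNA against BCRP, the drug efflux pump encoded by ABCG2. Each group had 3 libraries. Whether SK/EPI is a single clone, and whether EPI was present at harvest, is not given in the sources used here. The first pair of groups and the second pair were deposited as separate tables, so tests were run only within each table. The 12 libraries held between 15830381 and 20545811 reads on genes. Luminal markers summed to 3536 to 3732 FPKM in SK-BR-3, 2206 to 2324 in SK/EPI, 2610 to 2658 in SK/EPI-siControl and 2180 to 2219 in SK/EPI-siBCRP. The 8 adipocyte, leukocyte, fibroblast and endothelial markers together stayed at or under 3.2 FPKM in every library. Of the 6 luminal markers, 3 were lower and 2 higher in SK/EPI than in SK-BR-3, and their part in the results was not tested. ERBB2 measured 659 FPKM in SK-BR-3 and 133 FPKM in SK/EPI, 4.95-fold lower in the resistant cells.

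Fatty acid synthesis starts in the cytosol, where ATP citrate lyase (ACLY) splits citrate exported from mitochondria into acetyl-CoA and oxaloacetate. Acetyl-CoA carboxylases (ACACA, ACACB) turn acetyl-CoA into malonyl-CoA, and fatty acid synthase (FASN) uses both to build palmitate. Elongases (ELOVL genes) lengthen the chain, stearoyl-CoA desaturase (SCD) places the first double bond, and the front-end desaturases FADS1 and FADS2 act on polyunsaturated chains. Many of these genes are known targets of the transcription factor SREBP-1, which acts with the CCAAT-binding factor NF-Y. FASN is often high in HER2-amplified breast cancer.

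The siRNA target was checked first. ABCG2 measured 32.5, 32.7 and 33.7 FPKM in SK/EPI-siControl libraries and 2.84, 3.47 and 2.91 FPKM in SK/EPI-siBCRP libraries. The values of both groups did not overlap, and the log2 fold change was -3.06 on the log2(FPKM + 1) scale used throughout. In untreated cells, ABCG2 measured 33.9, 35.9 and 32.7 FPKM in SK/EPI, whereas SK-BR-3 libraries held between 2 and 6 reads. The labels say only siBCRP, and which of the study's designed BCRP siRNAs these libraries received is known here only from the title of a supplementary sheet, which names #1. The strands listed for siBCRP #1 are shown on that basis, and their use in these libraries could not be checked. Both strands are 25 bases long.
siBCRP#1-Upper: GGGAUACUUUGAAUCAGCUGGUUAU
siBCRP#1-Lower: AUAACCAGCUGAUUCAAAGUAUCCC

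The promoters of the genes were read for the letters bound by NF-Y and SREBP-1. RefSeq (GRCh38.p14) gave 14 promoter entries for 9 of the 10 genes. The promoter set used held no entry for FASN, so its promoter was not read. CCAAT, on either strand, stood within the 250 bases before the start in 8 entries covering 6 genes, and at least 2 copies stood in 6 entries. Entries of a gene can share bases: both ACLY entries hold the same pair of boxes, which is counted in each. Over 35116 promoters of the same length, 32.0% held CCAAT and 9.53% held at least 2 copies. CACGTG stood in 1 entry, that of ELOVL5, against 6.34% of all promoters, and TCACNCCAC stood in 0, against 0.883%. Matches were counted without regard to overlap between motifs, and a match describes the letters only. The stretches around the paired boxes of ACLY and SCD are shown because these genes had the highest silencing values of the 10. Capitals mark CCAAT or its reverse complement ATTGG, and each stretch runs from 5′ to 3′ on the strand of the gene.
ACLY, chr17:41919031-41919097, minus strand: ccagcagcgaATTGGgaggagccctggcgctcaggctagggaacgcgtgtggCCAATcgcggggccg
SCD, chr10:100346994-100347061, plus strand: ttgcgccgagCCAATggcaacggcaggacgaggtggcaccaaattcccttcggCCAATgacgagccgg
The ACLY boxes lie 65 and 23 bases before the first RefSeq start and the SCD boxes 229 and 186 bases before its start. None of the entries of ELOVL6, FADS1 or FADS2 held CCAAT.

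FASN and ACLY, the most abundant members in parental cells, were downregulated in SK/EPI cells. FASN (ENSG00000169710, chromosome 17, 82078333 to 82098332, minus strand, GRCh38) measured 410, 413 and 409 FPKM in SK-BR-3 and 151, 160 and 158 FPKM in SK/EPI. The groups were far apart, and the level was 2.62-fold lower in SK/EPI (log2 fold change -1.38, SE 0.037, limma adjusted p = 2e-08). ACLY (ENSG00000131473, chromosome 17, 41866908 to 41930542, minus strand) measured 131, 144 and 140 FPKM in SK-BR-3 and 87.6, 93.2 and 93.0 FPKM in SK/EPI. Every SK/EPI library was below every SK-BR-3 library, and ACLY was 1.52-fold lower (log2 fold change -0.59, SE 0.046, limma adjusted p = 8.8e-06). Part of the ACLY exons, 2.99% of their length, overlaps AC125257.2 on the opposite strand, and the strand setting of the counting was not given in the sources used here.

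The carboxylases moved the other way. ACACA, the cytosolic carboxylase that supplies malonyl-CoA for synthesis, measured 6.94, 7.47 and 7.16 FPKM in SK-BR-3 and 9.84, 9.89 and 9.97 FPKM in SK/EPI (1.38-fold higher, log2 fold change 0.41, SE 0.04, limma adjusted p = 3.3e-05). ACACB, the mitochondria-associated isoform whose malonyl-CoA restrains fatty acid import for oxidation, measured 0.878, 1.08 and 1.08 FPKM in SK-BR-3 and 1.74, 1.58 and 1.42 FPKM in SK/EPI (1.56-fold higher, log2 fold change 0.36, SE 0.071, limma adjusted p = 0.0021). Neither gene had overlapping groups. ACACA remained the major carboxylase transcript, at 7.14 ± 0.676 times ACACB in SK-BR-3 and 6.32 ± 0.687 times in SK/EPI (SD, n = 3), ranges that overlap.

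SCD, which makes oleate and palmitoleate, was upregulated in SK/EPI cells. It measured 55.7, 55.7 and 56.9 FPKM in SK-BR-3 and 87.7, 89.2 and 88.7 FPKM in SK/EPI. The level was 1.58-fold higher with no overlap (log2 fold change 0.65, SE 0.028, limma adjusted p = 2.5e-07). The ratio of FASN to SCD within a library went from 7.32 ± 0.123 in SK-BR-3 to 1.77 ± 0.0393 in SK/EPI (SD, n = 3). The ratio of ACLY to SCD went from 2.46 ± 0.121 to 1.03 ± 0.0279, so the ACLY and SCD ranges overlapped in SK/EPI.

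FADS1 and FADS2, the delta-5 and delta-6 desaturases of polyunsaturated fatty acid synthesis, showed the widest separation. FADS1 (ENSG00000149485, chromosome 11, 61799625 to 61829318, minus strand) measured 0.0616, 0.0487 and 0.0462 FPKM in SK-BR-3 and 8.02, 7.83 and 7.83 FPKM in SK/EPI. SK-BR-3 held 28 FADS1 reads in its 3 libraries together, and SK/EPI held 4556. Reads were scaled by the library divisor of the FPKM values. Their ratio was 153, with a 95% exact counting interval of 106 to 230 (log2 fold change 3.08, SE 0.051, limma adjusted p = 1.8e-09). FADS2 (ENSG00000134824, chromosome 11, 61792980 to 61867354, plus strand) was at 1 or 2 reads in each SK-BR-3 library and at 5.5, 5.68 and 5.48 FPKM in SK/EPI. The ratio, from 5 and 3450 reads, was 648 with a counting interval of 277 to 2000 (log2 fold change 2.7, SE 0.05, limma adjusted p = 3.2e-09). These intervals cover counting error only. FADS1 and FADS2 passed the filter on low values only through SK/EPI, where they are high. With 1 added to the FPKM, their parental values lie near 0. Their SE and p-values therefore say little about spread in the parental cells and are given as a description. Both genes were thus near 0 in the parental cells and measurable in all resistant libraries. Exons of FADS2 and MIR1908 overlap 5.57% of the FADS1 exon length, and exons of FADS1 and FEN1 overlap 4.89% of that of FADS2.

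The FADS genes lie close together on chromosome 11, and the FADS1 span lies within that of FADS2, on the opposite strand. FADS3, the neighbouring family member, measured 2.47 ± 0.16 FPKM in SK-BR-3 and 13.0 ± 0.498 FPKM in SK/EPI (SD, n = 3, log2 fold change 2.01, limma adjusted p = 1.7e-08). FEN1, the flap endonuclease gene, overlaps the start of the FADS2 span. FEN1 was lower in SK/EPI, at 43.3 ± 1.76 against 68.9 ± 0.783 FPKM (log2 fold change -0.66, limma adjusted p = 1.1e-06). Of the 54 other tested genes within 1 Mb of FADS1, 14 were higher and 31 lower in SK/EPI, with a median log2 fold change of -0.26. FADS2 and FADS3 are among the 14 higher genes. Of all genes tested, 37.9% were higher and 37.0% lower. More of these neighbours were thus lower than higher, whereas the 3 FADS genes were higher.

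The elongases were lower or near the parental level. ELOVL5, which lengthens polyunsaturated chains, measured 37.1, 38.5 and 38.2 FPKM in SK-BR-3 and 18.5, 18.7 and 18.6 FPKM in SK/EPI (2.04-fold lower, log2 fold change -0.99, SE 0.029, limma adjusted p = 3.2e-08). ELOVL1, which makes very long saturated chains, measured 70.7, 69.2 and 72.0 FPKM in SK-BR-3 and 37.6, 40.3 and 39.1 FPKM in SK/EPI (1.81-fold lower, log2 fold change -0.84, SE 0.035, limma adjusted p = 2.2e-07). For both, every resistant library was below every parental one. ELOVL6, which extends palmitate to stearate, measured 15.3, 16.8 and 17.0 FPKM in SK-BR-3 and 15.8, 15.8 and 15.9 FPKM in SK/EPI. These ranges overlap, and its log2 fold change was -0.04 with a 95% interval of -0.15 to 0.06 (limma adjusted p = 0.42). Its sign was positive, at 0.05 and 0.04, when the mitochondrial chromosome was left out of the scaling and when the recovered reads were modelled with voom. Both settings also replaced the library divisor of the FPKM values by totals of reads on genes. Without SK-BR-3 replicate 1 it passed the threshold, at -0.09 with limma adjusted p = 0.043.

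**Figure D1:**
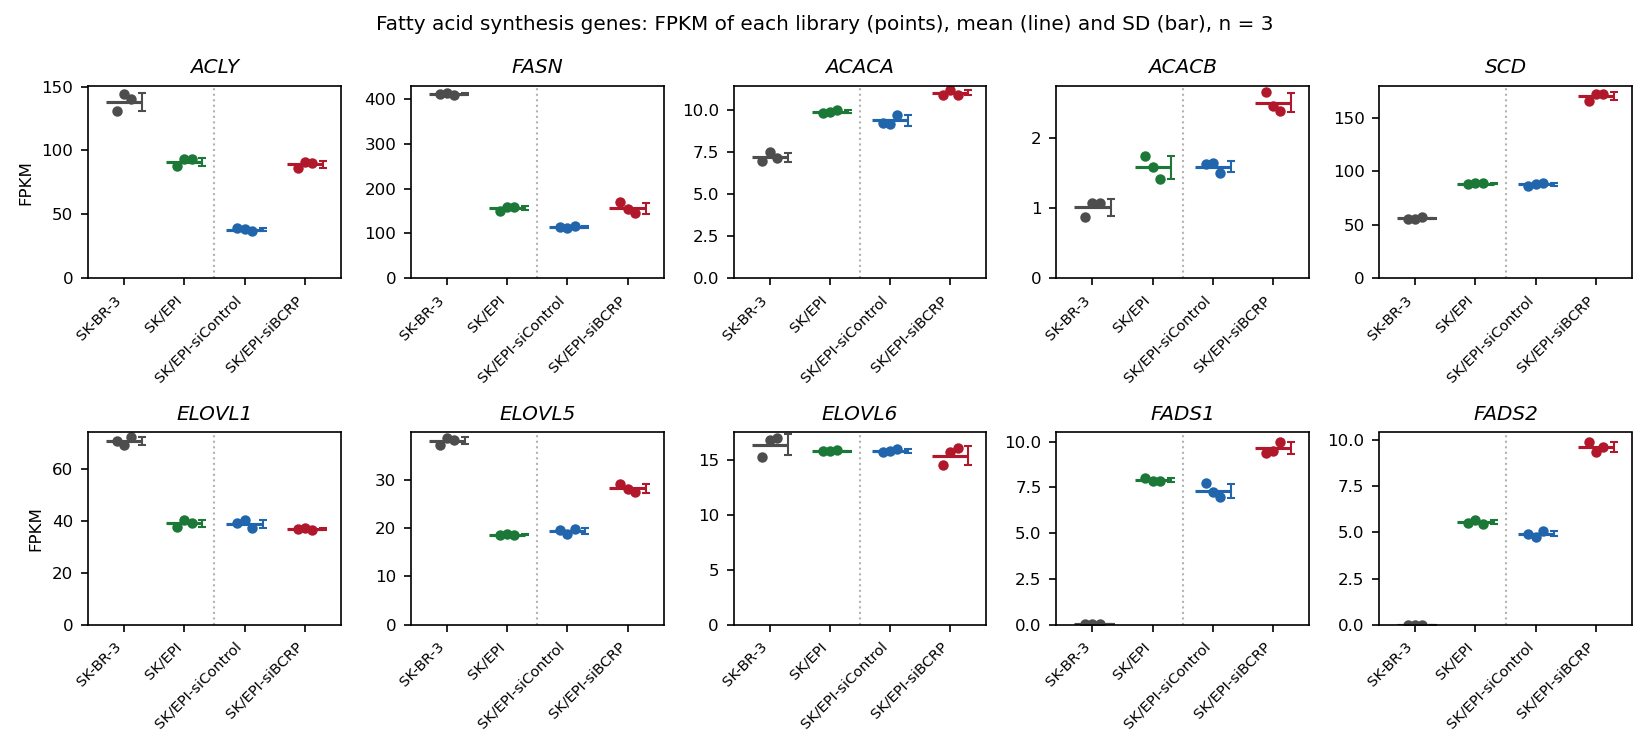
FPKM of the 10 genes in each library (points), with the group mean (line) and SD (bar), for SK-BR-3, SK/EPI, SK/EPI-siControl and SK/EPI-siBCRP, 3 libraries each. Each panel starts at 0 and has its own scale, and the dotted line separates the 2 tables. FASN lies at 409 to 413 in SK-BR-3, and FADS1 and FADS2 lie near 0 there.

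Of the 10 genes, 5 were higher and 4 lower in SK/EPI at an adjusted p under 0.05, against 74.9% of the 15823 genes tested that changed in either direction (37.9% higher and 37.0% lower). The 5 higher genes include FADS1 and FADS2, which passed the filter on low values only through SK/EPI. In 9 of the 10 genes the groups did not overlap, as in 77.7% of all tested genes. The share of changed genes among the 10 was thus near the background. Their median log2 fold change was 0.16, and that of all tested genes was 0.008. Whether these bulk values reflect less RNA per cell or fewer cells of a type cannot be told apart. The labels do not say whether the 3 libraries of a group came from separate cultures, so p-values measure the spread between these libraries, which may be technical.

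Next, the 10 genes were described upon BCRP silencing in SK/EPI cells. ACLY measured 39.1, 38.7 and 36.9 FPKM in SK/EPI-siControl and 86.0, 90.9 and 90.5 FPKM in SK/EPI-siBCRP. Every silenced library was above every control library, and the log2 fold change was 1.2, the value ranked 4 from the highest of 16298 genes tested. SCD was at 86.3, 88.4 and 89.0 FPKM in control and 166, 172 and 172 FPKM in silenced cells (log2 fold change 0.94, rank 21). FADS2 was at 4.93, 4.78 and 5.07 FPKM in control and 9.91, 9.33 and 9.62 FPKM in silenced cells (log2 fold change 0.84, rank 38). These 3 genes, which supply acetyl-CoA and introduce double bonds, had the highest values of the 10.

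Smaller values were seen for the carboxylases, FASN, FADS1 and ELOVL5. ELOVL5 was at 19.7, 18.7 and 19.8 FPKM in SK/EPI-siControl and 29.2, 28.1 and 27.5 FPKM in SK/EPI-siBCRP (log2 fold change 0.52). FASN was at 114, 113 and 116 FPKM in control and 169, 155 and 145 FPKM in silenced cells (log2 fold change 0.44). The 3 silenced FASN libraries were spread more widely than the control ones, with an SD of 11.8 against 1.65 FPKM. ACACB was at 1.63, 1.64 and 1.5 FPKM in control and 2.65, 2.46 and 2.38 FPKM in silenced cells (log2 fold change 0.43). FADS1 was at 7.75, 7.24 and 7.0 FPKM in control and 9.4, 9.51 and 10 FPKM in silenced cells (log2 fold change 0.35). ACACA, the major carboxylase, had the smallest difference of these 5, at 9.2, 9.18 and 9.72 FPKM in control and 10.9, 11.2 and 10.9 FPKM in silenced cells (log2 fold change 0.21).

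ELOVL1 and ELOVL6 stayed near the control level. ELOVL1 was at 38.9, 40.1 and 37.0 FPKM in SK/EPI-siControl and 36.8, 37.0 and 36.3 FPKM in SK/EPI-siBCRP (log2 fold change -0.07). ELOVL6 was at 15.7, 15.8 and 16.0 FPKM in control and 14.5, 15.7 and 16.1 FPKM in silenced cells (log2 fold change -0.04), ranges that overlap, and without SK/EPI-siBCRP replicate 1 its value was 0.01. Because the silencing contrast chose ACLY, the following counts describe the selected genes and nothing is read from them. In the fit over all genes, 8 of the 10 were past the threshold as higher and 0 as lower, and 9 had groups that did not overlap. Among the 16298 genes tested, 38.1% changed (19.4% higher and 18.7% lower) and 50.9% did not overlap. Without SK/EPI-siControl replicate 3, ELOVL1 was past the threshold as lower and the count of lower genes was 1. The luminal markers moved with the silenced group, 6 of 6 lower, with summed levels of 2180 to 2219 against 2610 to 2658 FPKM. Their part in these values was not tested.

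**Figure D2:**
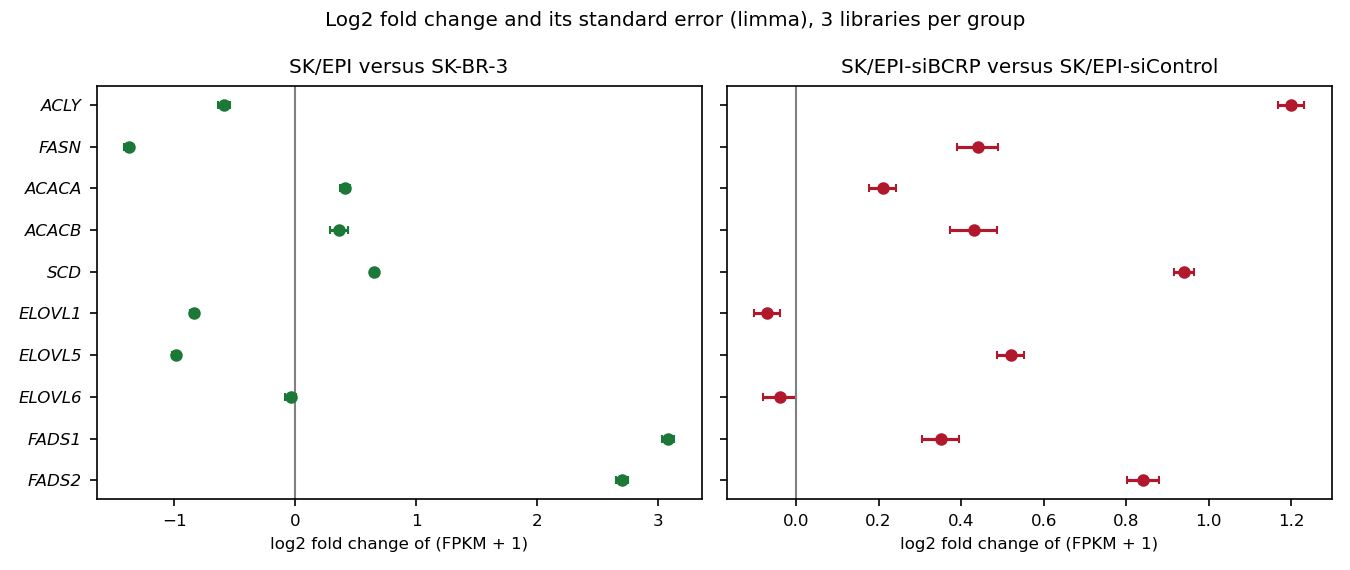
Log2 fold change of (FPKM + 1) for the 10 genes, SK/EPI versus SK-BR-3 (left) and SK/EPI-siBCRP versus SK/EPI-siControl (right). Points are limma estimates and bars their standard errors, 3 libraries per group, and the panels have different scales. ACLY is at -0.59 on the left and 1.2 on the right, FASN at -1.38 and 0.44, and ELOVL6 is at -0.04 in both panels, with a sign that depended on the scaling or on 1 library.

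Balance between the genes within a library also differed between the silencing groups. The FADS2 to FADS1 ratio was 0.674 ± 0.0456 in SK/EPI-siControl and 0.999 ± 0.0485 in SK/EPI-siBCRP (SD, n = 3), and it was 0.703 ± 0.0199 in untreated SK/EPI. The FASN to SCD ratio was 1.3 ± 0.0191 in control and 0.921 ± 0.0889 in silenced cells. SCD and FASN ranges overlapped only in the silenced cells, at 170 ± 3.68 and 156 ± 11.8 FPKM. In the other 3 groups FASN ranked above every other member. ACLY ranked second in SK-BR-3, tied within its spread with SCD in SK/EPI, and tied with ELOVL1 in SK/EPI-siControl.

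Values of the untreated SK/EPI cells were then set beside those of the siRNA-treated cells. These come from separate tables, so transfection, table and any batch cannot be told apart, and no test was made. ACLY measured 91.3 ± 3.16 FPKM in untreated SK/EPI, 38.2 ± 1.19 FPKM in SK/EPI-siControl and 89.1 ± 2.74 FPKM in SK/EPI-siBCRP (SD, n = 3). The control siRNA cells were thus at 0.419 of the untreated level, rank 46 from the lowest of 7612 genes of at least 5 FPKM, and the silenced cells at 0.976, within the untreated range. FASN followed the same order, with SK/EPI-siControl at 0.73 and SK/EPI-siBCRP at 0.997 of the untreated mean.

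SCD differed from ACLY in this respect. SK/EPI-siControl stood at 0.993 of untreated SK/EPI for SCD, with overlapping ranges, and SK/EPI-siBCRP at 1.92. For FADS2 the values were 0.888 and 1.73, for ACACB 1.01 and 1.58, and for ELOVL5 1.04 and 1.52. FADS1 and ACACA were at 0.929 and 0.946 in control cells and at 1.22 and 1.11 in silenced cells. The median of the 7612 genes was at -0.002 and 0.021 on the log2 scale, so both groups were centred on the untreated cells. ACLY and FASN had the lowest control siRNA levels of the 10 relative to untreated cells.

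**Figure D3:**
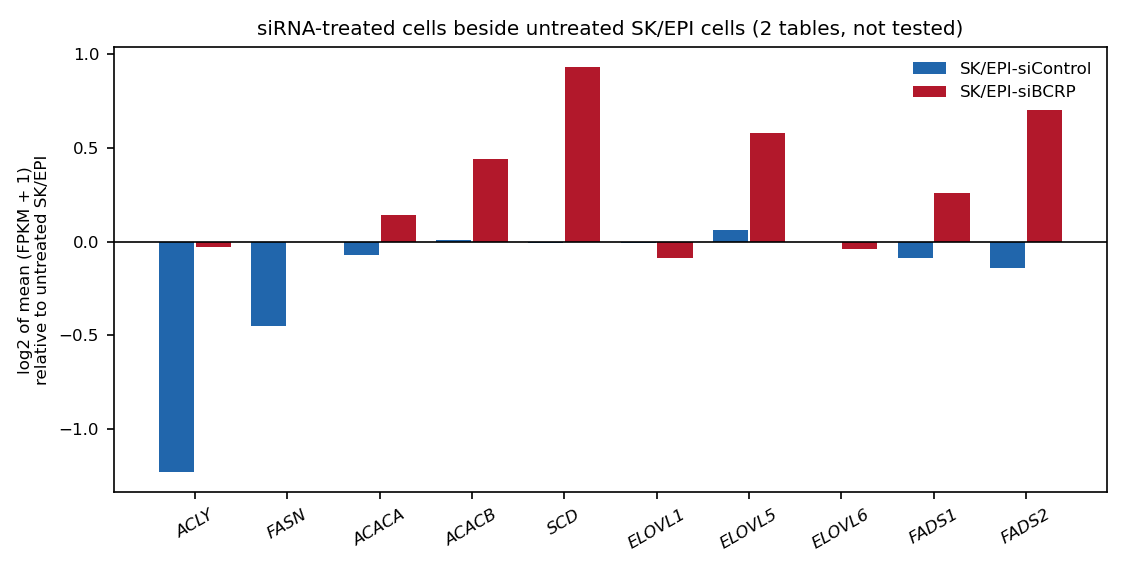
Log2 of (FPKM + 1) relative to untreated SK/EPI for SK/EPI-siControl (blue) and SK/EPI-siBCRP (red), from group means of 3 libraries. The bars start at 0, and the groups come from separate tables and were not tested. For ACLY the control bar is at -1.23 and the silenced bar at -0.03, and for SCD they are at -0.01 and 0.93.

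Genes whose level over the 12 libraries was most like that of ACLY were listed by Pearson correlation of log2(FPKM + 1) among 7254 genes whose mean reached 5 FPKM. The closest were NIPSNAP2 (r = 0.997), TUBG1 (0.99), SLC3A2 (0.987), YKT6 (0.987) and UBL4A (0.983). NIPSNAP2 measured 18.1 ± 0.287, 15.0 ± 0.229, 9.93 ± 0.386 and 15.0 ± 0.388 FPKM in SK-BR-3, SK/EPI, SK/EPI-siControl and SK/EPI-siBCRP (SD, n = 3). SLC3A2, the heavy chain of amino acid transporters, measured 104 ± 2.72, 92.5 ± 2.53, 70.2 ± 2.57 and 89.8 ± 1.65 FPKM in the same order. The points share group, table and library scaling, so this is a description. Of the 8 other genes of the 10 at that level, FASN was closest to ACLY (r = 0.83) and FADS1 farthest (r = -0.61).

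The suppliers of citrate, acetyl-CoA and NADPH were read from a list of 9 genes. In SK/EPI, 3 were higher and 5 lower than in SK-BR-3, beside 74.9% of all tested genes that changed. ACO1, the cytosolic aconitase, rose from 1.1 to 11.8 FPKM (log2 fold change 2.61, limma adjusted p = 1e-08), and IDH1, a cytosolic NADPH source, from 15.7 to 41.5 FPKM (1.35, 7.5e-09). The acetate-using enzyme ACSS2 rose from 13.5 to 20.2 FPKM. Upon silencing, 6 were higher and 1 lower, beside 19.4% higher and 18.7% lower over all tested genes. MDH1 rose from 30.9 to 43.2 FPKM (log2 fold change 0.47, limma adjusted p = 8.3e-06) and citrate synthase (CS) from 35.1 to 47.4 FPKM (0.42, 1.4e-05). The citrate carrier SLC25A1 rose from 28.9 to 34.4 FPKM. The exception was ME1, malic enzyme, which fell from 16.4 to 12.9 FPKM (log2 fold change -0.33, limma adjusted p = 0.00049).

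Regulators of the SREBP and ChREBP pathways formed a list of 14 genes. In SK/EPI, 7 were higher and 4 lower, beside 74.9% of all tested genes that changed. SREBF1, which encodes SREBP-1, measured 68.2, 69.7 and 66.1 FPKM in SK-BR-3 and 22.8, 24.9 and 24.3 FPKM in SK/EPI, a 2.83-fold lower level (log2 fold change -1.46, limma adjusted p = 2e-08). INSIG1, which retains SREBPs in the endoplasmic reticulum and is itself an SREBP target, went the other way, at 3.78, 3.76 and 3.54 against 15.4, 15.7 and 15.1 FPKM (log2 fold change 1.81, limma adjusted p = 9e-09). Upon silencing, 6 were higher and 1 lower, beside 19.4% higher and 18.7% lower over all tested genes. INSIG1 was at 15.9, 14.7 and 15.9 FPKM in control and 32.2, 32.2 and 32.4 FPKM in silenced cells, a 2.08-fold higher level (limma adjusted p = 3.2e-06). INSIG2 was the gene that fell, from 7.74 to 5.46 FPKM (log2 fold change -0.44, limma adjusted p = 0.00014). The ChREBP gene MLXIPL rose from 5.56 to 7.41 FPKM (limma adjusted p = 0.0018) and SREBF2 from 20.03 to 24.92 FPKM (limma adjusted p = 0.00017). SREBF1, named here after its value was seen, rose from 20.8 to 25.4 FPKM (log2 fold change 0.27, limma adjusted p = 0.01).

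Acetyl-CoA carboxylase is inhibited by AMPK, activated by the MID1IP1 protein and biotinylated by HLCS. Of 8 tested genes of this list of 10, 3 were higher and 3 lower in SK/EPI, beside 74.9% of all tested genes that changed. MID1IP1 rose from 12.5 to 30.2 FPKM (log2 fold change 1.21, limma adjusted p = 1.1e-07), the AMPK subunit PRKAG2 rose from 2.5 to 5.28 FPKM, and PRKAG1 fell from 19.43 to 11.99 FPKM. Upon silencing, 1 of 9 tested was higher and 4 were lower, beside 19.4% higher and 18.7% lower over all tested genes. The AMPK catalytic subunit PRKAA1 fell from 30.8 to 20.7 FPKM (log2 fold change -0.55, limma adjusted p = 6.8e-06), HLCS from 3.18 to 2.09 FPKM (limma adjusted p = 0.00059) and PRKAB2 from 7.76 to 5.72 FPKM (limma adjusted p = 0.00019). MID1IP1 rose from 22.3 to 27.0 FPKM (limma adjusted p = 0.0017).

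Other enzymes of elongation and desaturation, 11 tested of 12, included the paralogs of the 10 genes. In SK/EPI, 5 were higher and 4 lower, beside 74.9% of all tested genes that changed. SCD5, the second human stearoyl-CoA desaturase, had 0 reads in all SK-BR-3 libraries and 26.9, 29.4 and 27.4 FPKM in SK/EPI. Against a floor of 3 reads per library it was at least 701-fold higher (limma adjusted p = 2.5e-10). SCD5, ELOVL2 and ELOVL3 passed the filter on low values only through SK/EPI, so their calls are a description. SCD5 thus reached 0.315 ± 0.0127 of the SCD level in SK/EPI (SD, n = 3). ELOVL3 rose from 0.249 to 2.25 FPKM and ELOVL2, an elongase of polyunsaturated chains, from 0.0338 to 1.54 FPKM (7 and 349 reads in all, ratio 46.8, counting interval 22.5 to 117). ELOVL4 fell 4.1-fold from 4.75 FPKM (log2 fold change -1.41, limma adjusted p = 9.8e-07) and ELOVL7 from 1.95 to 1.25 FPKM. The dehydratase HACD2 rose from 23.4 to 76.9 FPKM (log2 fold change 1.68).

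Upon silencing, 6 of these 11 were higher and 0 lower, beside 19.4% higher and 18.7% lower over all tested genes. ELOVL4 rose from 0.868 to 1.48 FPKM (limma adjusted p = 0.0019), the reductase gene HSD17B12 from 6.85 to 9.24 FPKM (0.00063) and TECR from 18.1 to 21.1 FPKM (0.002). ELOVL3 rose from 3.89 to 4.91 FPKM. SCD5 differed little beside SCD, at 31.0 ± 0.551 and 33.5 ± 0.367 FPKM (SD, n = 3, log2 fold change 0.11, limma adjusted p = 0.0079), so its ratio to SCD was 0.352 in control and 0.197 in silenced cells. FADS3 measured 12.5 and 12.9 FPKM (log2 fold change 0.04, limma adjusted p = 0.58). ELOVL2 and ELOVL7 did not pass the test, at log2 fold changes of -0.13 and -0.12.

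Acyl-CoA synthetases and enzymes of glycerolipid synthesis use the products of the pathway. Of 9 tested of 10, 5 were higher and 4 lower in SK/EPI, beside 74.9% of all tested genes that changed. ACSL4, which prefers arachidonate, measured 0.265, 0.233 and 0.229 FPKM in SK-BR-3 and 7.21, 6.96 and 6.62 FPKM in SK/EPI (28.6-fold, log2 fold change 2.67, limma adjusted p = 5.6e-09). DGAT2, a triglyceride-forming enzyme, rose from 0.129 to 1.31 FPKM, while DGAT1 fell from 21.3 to 12.2 FPKM and ACSL3 from 25.6 to 13.9 FPKM. Upon silencing, 4 were higher and 0 lower, beside 19.4% higher and 18.7% lower over all tested genes. ACSL5 rose from 4.92 to 6.53 FPKM (limma adjusted p = 0.0026), DGAT2 from 2.17 to 3.04 FPKM (0.0072) and ACSL3 from 14.8 to 18.2 FPKM (0.00045), and ACSL4 measured 11.7 and 12.1 FPKM without passing the test.

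Uptake, binding and lipolysis genes, which bring in or release fatty acids, numbered 15, with 12 and 11 tested. In SK/EPI, 5 were higher and 6 lower, beside 74.9% of all tested genes that changed. The transporter SLC27A2 rose from 0.385 to 13.3 FPKM (34.5-fold, log2 fold change 3.37, limma adjusted p = 1.1e-08), and its relative SLC27A4 fell from 38.1 to 13.8 FPKM (log2 fold change -1.4, limma adjusted p = 4.4e-08). The lipid droplet coat gene PLIN2 rose from 2.73 to 9.03 FPKM. Upon silencing, 5 were higher and 1 lower, beside 19.4% higher and 18.7% lower over all tested genes. SLC27A4 rose from 9.43 to 15.1 FPKM (log2 fold change 0.62, limma adjusted p = 3.4e-05) and SLC27A2 from 6.86 to 9.44 FPKM (0.41, 0.00028). Untreated SK/EPI cells, in the other table, were at 13.8 FPKM for SLC27A4 and 13.3 FPKM for SLC27A2, so silenced cells stayed below untreated cells for SLC27A2. FABP5, a fatty acid binding protein, fell from 3.27 to 2.5 FPKM.

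Mitochondria hold a separate fatty acid synthesis pathway of single enzymes, which makes the precursor of lipoic acid. Of its 7 genes, 2 were higher and 3 lower in SK/EPI, beside 74.9% of all tested genes that changed. MCAT fell from 15.2 to 9.49 FPKM (limma adjusted p = 2.2e-05). Upon silencing, 2 were higher and 0 lower, beside 19.4% higher and 18.7% lower over all tested genes. NDUFAB1, the mitochondrial acyl carrier protein and also a complex I subunit, rose from 80.6 to 117 FPKM (log2 fold change 0.53, limma adjusted p = 6e-05), and MCAT rose from 8.94 to 10.8 FPKM (limma adjusted p = 0.006).

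Over the 7 lists, 70 of 77 genes were tested in each comparison. In SK/EPI versus SK-BR-3, 30 were higher and 29 lower, a split close to even and beside a background of 74.9% changed. In SK/EPI-siBCRP versus SK/EPI-siControl, 30 were higher and 7 lower, beside a background of 19.4% higher and 18.7% lower. These calls are against control siRNA cells only. For SREBF2, SREBF1, SLC25A1 and ACSL5, untreated SK/EPI cells (24.14, 24.0, 33.5 and 6.91 FPKM) were near the silenced level (24.92, 25.4, 34.4 and 6.53 FPKM). For INSIG1 and MDH1, untreated cells (15.4 and 27.5 FPKM) were near or below the control siRNA level (15.5 and 30.9 FPKM). Most list genes were not set beside untreated cells, and no test was made. The lists were chosen with results of these data known, so these counts are a description.

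**Figure D4:**
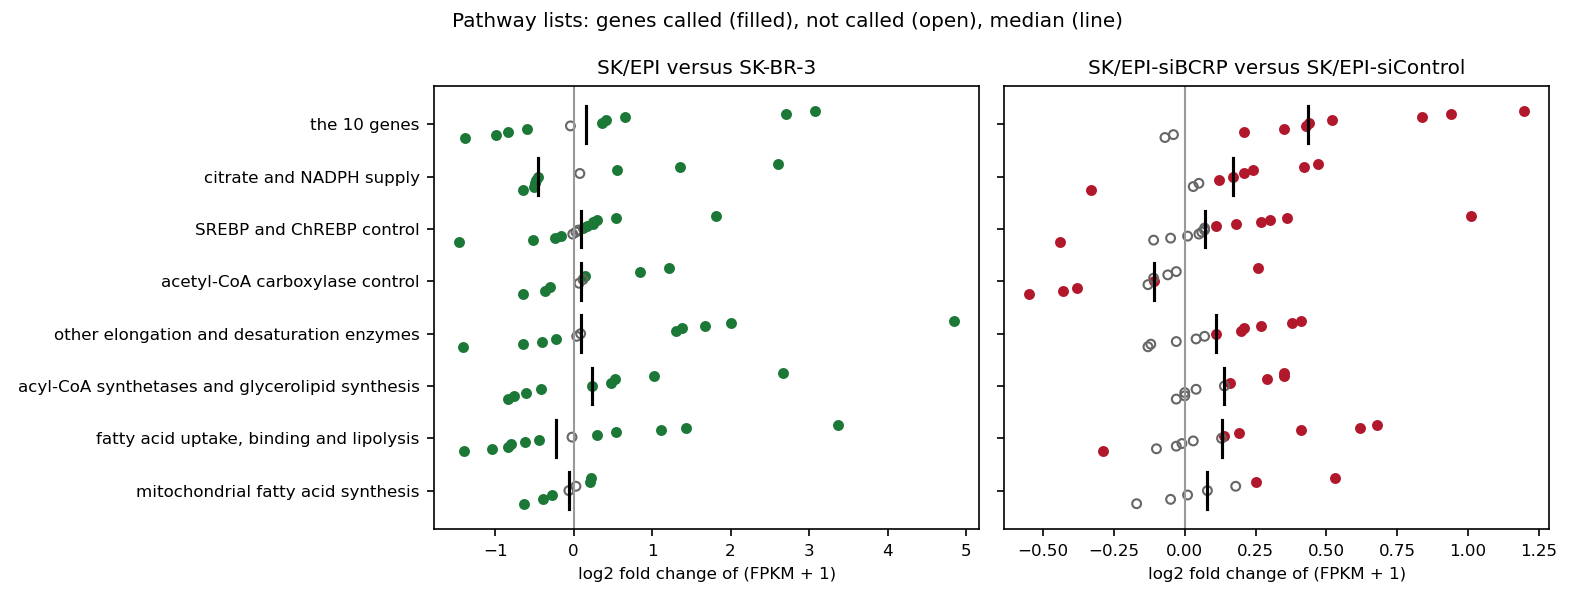
Log2 fold change of (FPKM + 1) of each tested gene in the 10 genes and in the 7 pathway lists, SK/EPI versus SK-BR-3 (left) and SK/EPI-siBCRP versus SK/EPI-siControl (right). Filled points passed an adjusted p under 0.05, open points did not, and the black line is the list median. On the left the lists spread to both sides of 0 (30 higher, 29 lower over the 7 lists), and on the right most filled points lie above 0 (30 higher, 7 lower). SCD5 is the point at 4.85 on the left, and the 10 genes on the right are a description of selected genes.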

How the data were processed

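RNA was sequenced as 12 poly-A libraries (4 groups of 3) made with the NEBNext Ultra kit. The submitters' processing notes name hg38, HISAT2 2.0.5, featureCounts 1.5.0-p3 and DESeq2 1.16.1 without roles. The authors deposited FPKM values (reads scaled to exon length and a divisor for each library) for 58735 GENCODE 29 genes in 2 tables. Multiplied by exon length, 100.0% of values in each library were whole reads (tolerance 0.05), so read numbers and the divisor were recovered. Reads on genes were 99.75% to 101.0% of the divisor in SK-BR-3 and 92.75% to 95.45% in SK/EPI. They were 89.51% to 90.07% in SK/EPI-siControl and 90.42% to 90.7% in SK/EPI-siBCRP. Replicates differed beyond counting noise (chi-square per degree of freedom 1.64 to 4.27). Each table was tested alone with limma 3.58.1 (R 4.3.3, trended eBayes) on log2(FPKM + 1), with Benjamini-Hochberg adjustment over all tested genes and an adjusted p under 0.05. Tested genes had the equivalent of 10 reads in at least 3 libraries and 15 in all (15823 and 16298 genes). The procedure was tried on simulated reads with the same fixed dispersion for every gene. Simulated log2 changes of 0.5 were recovered in 54% of genes for SK/EPI versus SK-BR-3 and 62% for silencing. Their median estimates were 0.396 and 0.407. A log2(FPKM + 1) fold change understates the change of low genes.

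The 10 genes and the 7 lists were chosen with earlier results of these data known. Genes named from lists were those past the threshold with the largest absolute log2 fold change, at most 4 a list and comparison, or fewer, plus paralogs of the 10 genes, and the 5 genes most correlated with ACLY. Some list genes are counted but not reported here by name. Alternatives were a pseudocount of 0.1, no low filter, median-of-ratios scaling, scaling without the mitochondrial chromosome, a replicate block, voom on recovered reads, and leaving out each library. Scaling without the mitochondrial chromosome and voom started from recovered reads and used totals of reads on genes, not the FPKM divisor. Motifs were searched on both strands of RefSeq promoters.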

Additional observations from a re-analysis of the deposited data

How the results depend on the processing

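All 9 changed genes of the 10 kept their direction and their side of the threshold in SK/EPI versus SK-BR-3 under all 12 alternatives, with ACLY between -0.63 and -0.49, FASN between -1.4 and -1.28 and SCD between 0.64 and 0.75. FADS1 ranged from 3.07 to 7.27, FADS2 from 2.68 to 9.08 and ACACB from 0.31 to 0.72, because a pseudocount of 0.1 or modelling of reads shrinks low values less. Upon silencing, ACLY stayed between 1.17 and 1.23, SCD between 0.93 and 0.96, FADS2 between 0.82 and 0.95 and ACACB between 0.4 and 0.63. ELOVL6 changed sign, to 0.05 with scaling without the mitochondrial chromosome and 0.04 with voom in SK/EPI versus SK-BR-3, and to 0.01 upon silencing without SK/EPI-siBCRP replicate 1, in a range of -0.07 to 0.01 over left-out libraries. Voom and the scaling without the mitochondrial chromosome also used totals of reads on genes in place of the FPKM divisor. The cause was not tested. The number of the 10 genes past the threshold as lower upon silencing, a description of selected genes, ranged from 0 to 1 (without SK/EPI-siControl replicate 3) when libraries were left out. Voom gave 5 rather than 3 higher genes in the acetyl-CoA carboxylase list in SK/EPI, and 2 rather than 1 lower in the SREBP and ChREBP list upon silencing. It moved the median log2 fold change of all genes in SK/EPI versus SK-BR-3 from 0.01 to 0.1. Same-numbered libraries did not deviate together (correlations -0.0485 to 0.0551), and with a replicate block 5889 genes were higher and 5767 lower in SK/EPI and 2896 higher and 2744 lower upon silencing, while the 10 genes gave 5 higher and 4 lower in SK/EPI. Depth limits FADS1, FADS2, ELOVL2 and SCD5 in SK-BR-3, where a library held at most 10 reads of each.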
